A study of Rattus norvegicus with 30 samples.

Results

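The genes described here encode enzymes that make NADPH or carry the pentose phosphate pathway: H6pd, Pgd, Tkt, Taldo1, Rpia, Me1, Idh1, Idh2 and Nnt. They are 9 of the 14217 genes that have a probe set of a single symbol on the rat 230 2.0 expression array. They were chosen by symbol, and each was read from the probe set with the highest mean log2 signal. All 9 were among the 8531 genes bright enough to be tested. Transcripts were measured in frozen male Sprague Dawley primary rat hepatocytes from a commercial supplier, kept on collagen-coated plates under Matrigel and dosed on the third day of culture. There were 6 groups of 5 arrays, 1 array per culture well: 1% DMSO vehicle, 500 µM acetaminophen and 5000 µM acetaminophen, each harvested at 24 h and at 48 h. Per the labels' protocols, the dosing solutions of every dose were also made in DMSO. The labels call the 5 wells of a group independent cultures, but do not say that they came from different animals. The p-values therefore measure the spread between wells. Frozen and plated hepatocytes lack the blood flow and most of the other cells of the liver.

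NADPH is the electron donor for reductive synthesis and for glutathione reductase, which restores the glutathione used up by oxidants and by the reactive quinone imine of acetaminophen. In the oxidative branch of the pentose phosphate pathway, dehydrogenases reduce NADP+ while glucose 6-phosphate is turned into a pentose. In the reversible branch, an isomerase, a transketolase and a transaldolase exchange carbon between pentoses and the sugars of glycolysis. Malic enzyme and NADP-dependent isocitrate dehydrogenases are further sources of NADPH, and the nicotinamide nucleotide transhydrogenase makes it inside mitochondria from NADH and the proton gradient.

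The promoters of these enzymes are shown because some NADPH enzymes are textbook targets of NRF2, which binds antioxidant response elements. RefSeq promoter windows (GRCr8, 250 bases before to 50 after the annotated start) were found for all 9 genes. They were searched on both strands for the element's core, TGACNNNGC, which 12.1% of 33469 windows of this length hold. Of the 9 windows, 3 hold it, 1 match in each. Each match is printed with 10 bases on either side, on the gene's own strand, the match in capitals; in Nnt the capitals are the core read on the other strand.
Me1 (chr8:96540393-96540421, minus strand): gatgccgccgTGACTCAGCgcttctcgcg
Idh1 (chr9:74049539-74049567, minus strand): taaaaagcctTGACCCTGCccccgggcgt
Nnt (chr2:53237352-53237380, minus strand): tctgagcagtGCTGTGTCAcgtggtcgtc
The first capital lies at position -167 in Me1, -83 in Idh1 and -60 in Nnt, counted from the annotated start, where the first base before it is -1. The annotated start of Me1 coincides with an ATG, so transcription may begin elsewhere. The E-box CACGTG, held by 6.42% of all windows, was present only in Nnt among the 9, overlapping the core match. The GC box GGGCGG was present in 6 of the 9 windows (33.1% of all), CCAAT in 4 (37.5% of all), and the nuclear receptor half-site AGGTCA in none (16.2% of all). The 9 windows were 54.3% (Tkt) to 81.7% (Me1) G and C, all above the median of 51.7% over all windows. The shares of all windows were not matched for this content. These matches describe letters only. Binding was not measured in this series.

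Values are MAS5 signal, the brightness of a probe set after the authors' scaling of each array. Signals of different genes come from different probes and are not compared. Differences are of mean log2 signal between groups, each with its standard error from limma. It is called where the Benjamini-Hochberg adjusted p over all tested genes is under 0.05. All 9 hepatocyte markers measured, including Alb and Cps1, were bright, with mean signals of 12770 to 71531. Most markers of other liver cells were dim, and Cd163 (68), Clec4f (270), Ptprc (128), Pecam1 (110), Lrat (34), Krt7 (12) and Krt19 (148) lay below the tested range. The exceptions well above it were Cd14, Lyz2 and Epcam. RNA quality, read as log2 of the β-actin 3′ control signal over the 5′ one, was not the same in all groups. Vehicle arrays averaged 1.78 ± 0.24 (SD, n = 5) at 24 h and 1.24 ± 0.11 at 48 h. The 500 µM arrays averaged 1.61 ± 0.33 and 1.86 ± 0.12 at these times, and the 5000 µM arrays 1.37 ± 0.22 and 1.21 ± 0.05. The same ratio of the GAPDH controls had smaller group means, from 0.09 (5000 µM, 48 h) to 0.26 (500 µM, 48 h), and was not used in a fit. The arrays were also split at the widest gap in the β-actin ratio. At 48 h all 5 arrays at 500 µM lay above it and all 10 others below. Results that change with the β-actin ratio in the model, or with the side of the gap as a block, are given with both values.

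**Figure D1:**
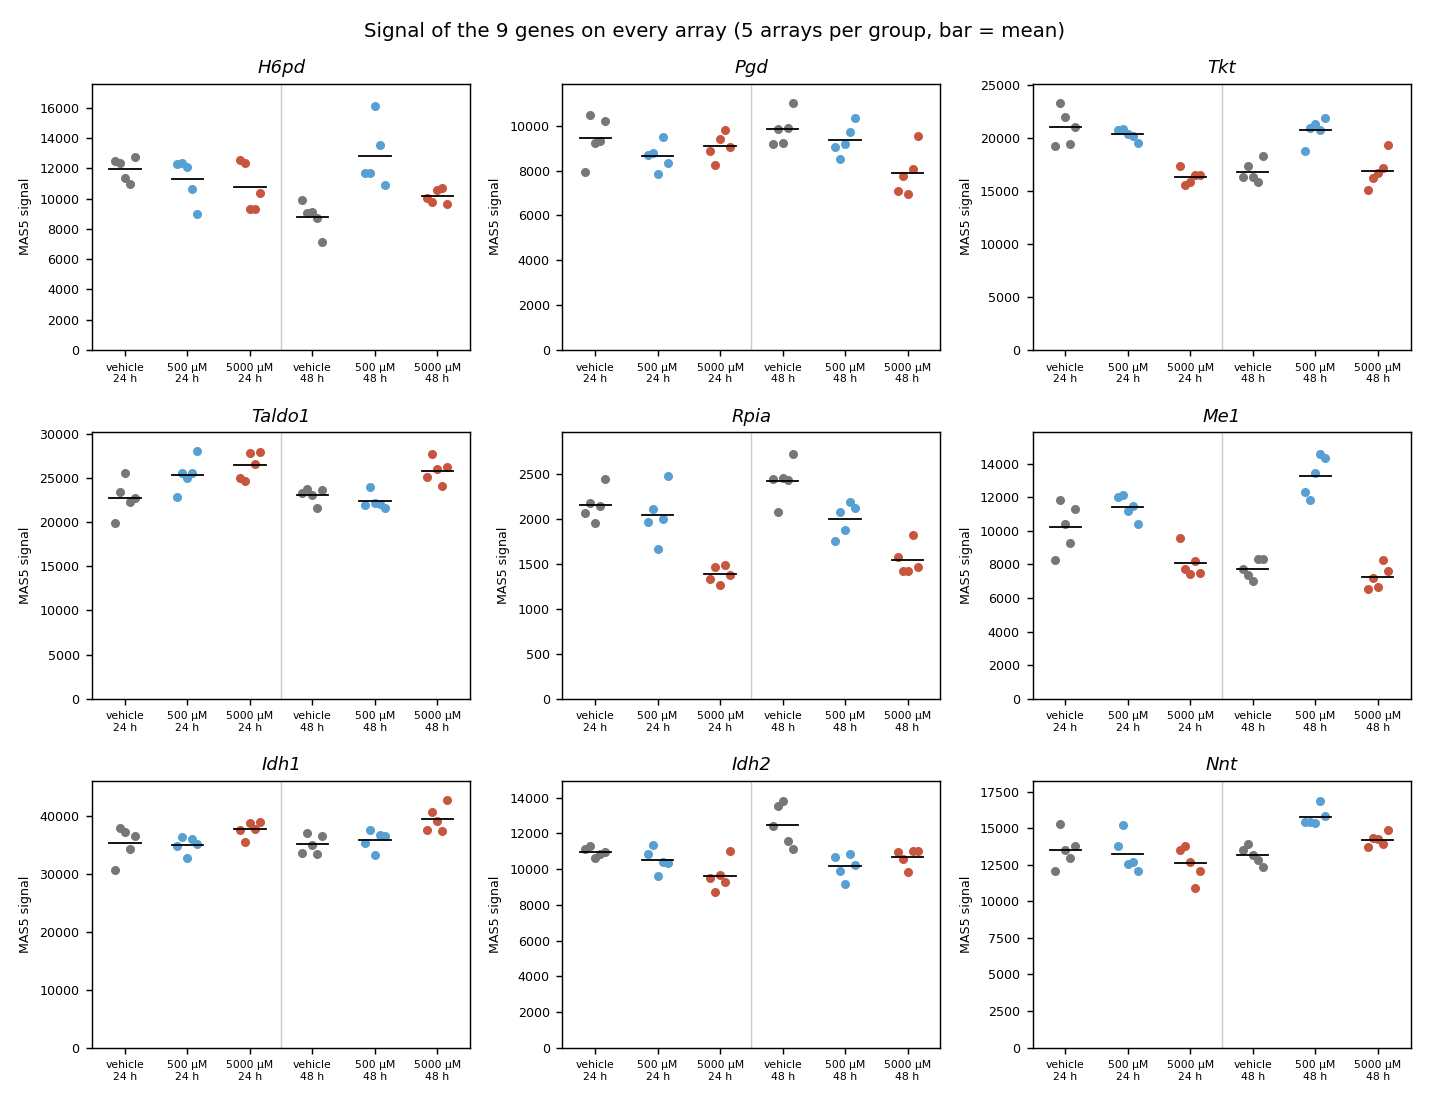
MAS5 signal of each of the 9 genes on all 30 arrays, by dose and harvest time (linear axes starting at 0; points are arrays, bars are means of 5). With the brighter probe sets shown, Me1 is highest at 500 µM and 48 h, and Rpia is lowest in both 5000 µM groups.

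Acetaminophen did not move the 9 genes as a block in the main fit: at each dose and time where calls were made, some rose and others fell. At 500 µM and 24 h none was called, against 2.86% of all tested genes (1.65% higher and 1.21% lower; 2.86% is 244 genes, and 116 to 156 in 4 fits that left out 1 array), and 1 of the 9 (Taldo1) had an unadjusted p under 0.05 in limma. The 5000 µM wells at 24 h had 5 called, 1 higher and 4 lower. Of all tested genes, 38.1% were called there, 18.6% higher and 19.6% lower. At 48 h, 6 were called at 500 µM, 4 higher and 2 lower, against 42.6% of all (24% higher and 18.6% lower). In the 5000 µM wells at 48 h, 5 were called, 2 higher and 3 lower, against 32.6% of all (14.6% higher and 18% lower). The rises at 5000 µM were Taldo1 at 24 h (0.22 ± 0.06), and Taldo1 (0.16 ± 0.06) and Idh1 (0.17 ± 0.05) at 48 h. The rise at 24 h was not called with the β-actin ratio as a covariate, though it was with the gap as a block. Each rise at 48 h lost its call in some fit without 1 array. In the last 3 comparisons the counts of 5 or 6 of 9 are above these shares. With so many genes called and no more than 9 members, the excess was not tested and is not read as a result. The median difference of the 9 genes was -0.04, -0.16, 0.03 and 0.00 in these 4 comparisons, and that of all tested genes -0.02, 0.00, 0.01 and -0.01. Both doses at a given time were compared with the same vehicle wells. With arrays centred on their medians, the calls among all genes split into 185 higher and 58 lower at 500 µM and 24 h, instead of 141 and 103. For 500 µM at 48 h they split into 1488 and 2224, instead of 2044 and 1588. The members' counts in these 2 comparisons were the same under that centring.

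**Figure D2:**
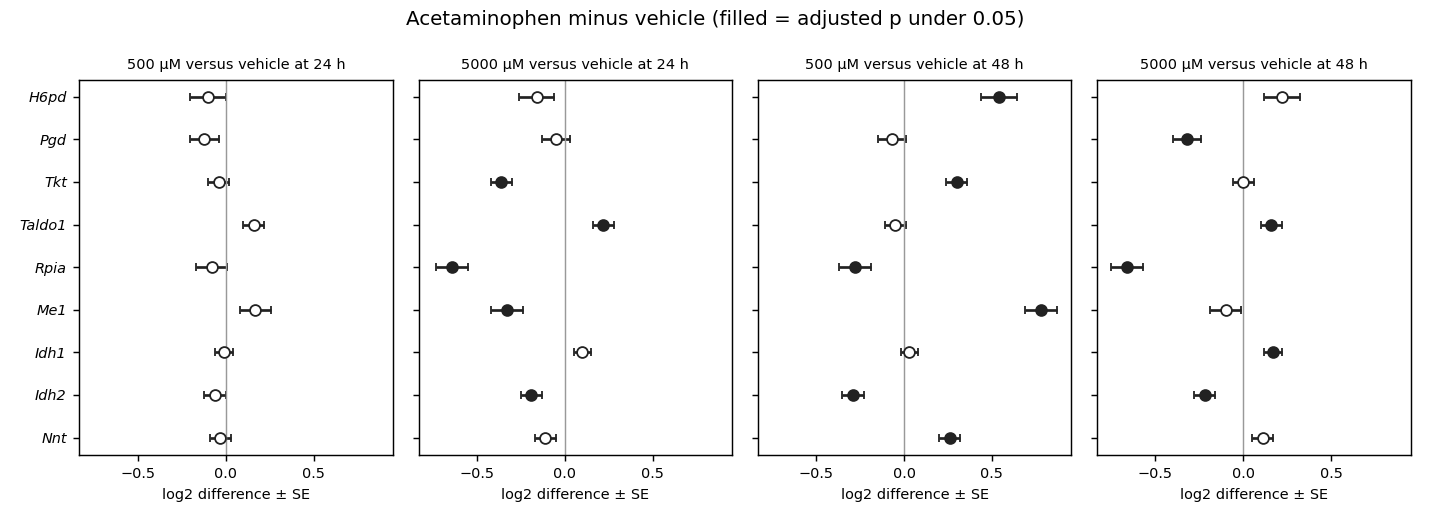
Difference from vehicle of the same time on the log2 scale with its standard error, for the 9 genes at each dose and time (n = 5 arrays per group; filled symbols have an adjusted p under 0.05). No symbol is filled at 500 µM and 24 h; at 48 h Me1 has the largest rise at 500 µM and Rpia the largest fall at 5000 µM.

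In the oxidative branch, H6pd and Pgd differed from vehicle at different doses. H6pd encodes hexose-6-phosphate dehydrogenase, which carries out the first steps of the branch inside the endoplasmic reticulum. At 48 h its signals in vehicle were 9896, 9020, 9113, 8714 and 7106, and at 500 µM 11678, 11683, 16150, 13524 and 10907. All arrays at 500 µM lay above all vehicle arrays. The rise was 0.54 ± 0.10 (adjusted p = 0.000116, limma). With the β-actin ratio as a covariate it was 0.20 ± 0.11 (adjusted p = 0.365) and with the gap as a block 0.33 ± 0.12 (adjusted p = 0.111), so the call was lost in both. The 5000 µM signals at 48 h were 9656 to 10708 and overlapped vehicle (difference 0.22 ± 0.10, adjusted p = 0.101). This difference was called with the covariate (0.23 ± 0.08, adjusted p = 0.024), with median centring (0.25 ± 0.09, adjusted p = 0.038) and with only the groups compared in the fit (0.22 ± 0.07, adjusted p = 0.0321).

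Pgd encodes 6-phosphogluconate dehydrogenase, the enzyme of the cytosolic branch that releases CO2 and forms the pentose. It fell at 5000 µM and 48 h, from vehicle signals of 9174, 9874, 9214, 9893 and 11002 to 7102, 7741, 6975, 8086 and 9551. Of the 5 treated arrays, 1 lay within the vehicle range. The difference was -0.32 ± 0.08 (adjusted p = 0.00162) and -0.33 ± 0.08 with the covariate (adjusted p = 0.000829). In the other 3 comparisons with vehicle Pgd was not called, with differences of -0.12 ± 0.08, -0.05 ± 0.08 and -0.07 ± 0.08. A further 4 probe sets list Pgd together with other symbols and were not used.

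In the reversible branch Rpia had the widest range of group means. Rpia encodes ribose-5-phosphate isomerase, which interconverts ribulose 5-phosphate and ribose 5-phosphate, the sugar of nucleotides. At 24 h its signals were 2072, 2181, 1954, 2150 and 2455 in vehicle and 1339, 1467, 1265, 1495 and 1383 at 5000 µM. At 48 h they were 2452, 2084, 2458, 2440 and 2727 in vehicle and 1576, 1428, 1425, 1823 and 1470 at 5000 µM. At both times every treated array lay below every vehicle array. The differences were -0.64 ± 0.09 at 24 h (adjusted p = 1.77e-06) and -0.66 ± 0.09 at 48 h (adjusted p = 1.26e-06), which are 1.55-fold and 1.58-fold lower levels. With the β-actin ratio as a covariate they were -0.76 ± 0.10 and -0.67 ± 0.09. Within the arrays below the gap at 24 h (4 treated and 2 vehicle) the difference was -0.71, and above it (1 treated and 3 vehicle) -0.63.

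The fall of Rpia at 5000 µM was seen with 1 of its 2 probe sets. The values above are from 1389468_at. The dimmer one, 1376559_at, gave 0.10 ± 0.14 at 24 h (adjusted p = 0.714 over all probe sets) and 0.26 ± 0.14 at 48 h (adjusted p = 0.253). Its signals at 48 h were 1280, 1289, 969, 1359 and 985 in vehicle and 1191, 1358, 1365, 1457 and 1653 at 5000 µM, which overlap. With the mean of both probe sets the difference from vehicle was -0.27 ± 0.09 at 24 h (adjusted p = 0.017) and -0.20 ± 0.09 at 48 h (adjusted p = 0.0935), so the second call was lost. The 500 µM wells at 48 h were called lower with both, by -0.28 ± 0.09 (adjusted p = 0.0172) with the brighter and -0.47 ± 0.14 (adjusted p = 0.0149) with the dimmer. In the fit of the brighter probe set that call was lost with the covariate (-0.09 ± 0.12, adjusted p = 0.75), with the gap as a block (-0.12 ± 0.12, adjusted p = 0.593), without 500 µM replicate 1 (adjusted p = 0.0578) and without vehicle replicate 5 (adjusted p = 0.0565). What the 2 probe sets recognise was not tested.

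Tkt encodes transketolase, which moves carbon units of pentoses onto other sugars. At 24 h its vehicle signals were 19279, 23339, 21998, 19508 and 21113, and those at 5000 µM 17353, 15555, 15833, 16538 and 16562. The groups did not overlap, and the fall was -0.36 ± 0.06 (adjusted p = 1.09e-05). It was -0.32 ± 0.07 with the covariate (adjusted p = 0.000544), and -0.33 and -0.31 within the arrays below and above the gap. At 48 h the vehicle signals were 16367, 17414, 16330, 15857 and 18326, lower than at 24 h, and those at 500 µM were 18806, 20956, 21396, 20758 and 21903, all above vehicle. This rise of 0.30 ± 0.06 (adjusted p = 0.000191) was 0.25 ± 0.08 with the covariate (adjusted p = 0.0866) and 0.22 ± 0.08 with the block (adjusted p = 0.0782), and was not called in either. The 5000 µM wells at 48 h differed from vehicle by 0.00 ± 0.06 (adjusted p = 0.976), with a 95% interval of -0.12 to 0.12.

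Taldo1 encodes transaldolase, the partner of transketolase. It was higher at 5000 µM at both times, by small amounts. At 24 h the signals were 19875, 23338, 25581, 22239 and 22747 in vehicle and 24972, 24683, 27836, 26512 and 27930 at 5000 µM, with 2 treated arrays below the highest vehicle array. The rise of 0.22 ± 0.06 (adjusted p = 0.00324) was 0.15 ± 0.07 with the covariate (adjusted p = 0.077). At 48 h the treated signals of 24118 to 27676 lay above all vehicle signals of 21599 to 23741, a rise of 0.16 ± 0.06 (adjusted p = 0.0294). This call was lost without vehicle replicate 4 (adjusted p = 0.0872) and without 5000 µM replicate 2 (adjusted p = 0.0916), 3 (adjusted p = 0.0538) or 5 (adjusted p = 0.0552). Tkt and Taldo1 thus moved in opposite directions at 5000 µM and 24 h.

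Me1 had the largest rise of the 9 genes. It encodes the cytosolic malic enzyme, which turns malate into pyruvate and is known for supplying NADPH to fatty acid synthesis in liver. At 48 h its signals were 7726, 7365, 7008, 8307 and 8342 in vehicle, 12284, 11812, 13414, 14554 and 14348 at 500 µM, and 6556, 7212, 6643, 8272 and 7595 at 5000 µM. The 500 µM arrays stood above all others of that time, while the 5000 µM arrays overlapped vehicle. The rise at 500 µM was 0.78 ± 0.09, or 1.71-fold (adjusted p = 1.36e-07). It was 0.69 ± 0.12 with the β-actin ratio as a covariate (adjusted p = 0.000917). The 5000 µM difference at 48 h was -0.10 ± 0.09 (adjusted p = 0.428), and it was not called (adjusted p = 0.424) with consecutive sets of 6 arrays by title serial number as a block (a fit added after seeing the data), though lower than vehicle in 5 of 5 sets. At 24 h the signals were 8240, 11828, 10420, 9299 and 11269 in vehicle and 9572, 7698, 7412, 8186 and 7462 at 5000 µM. Of the 5 treated arrays, 4 lay below every vehicle array. The fall was -0.33 ± 0.09 (adjusted p = 0.00232), and -0.28 ± 0.10 with the covariate (adjusted p = 0.0361). It was -0.41 within the arrays below the gap and -0.07 above it, where there was 1 treated array.

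The 2 probe sets of Me1 also differed. The values above are from 1370870_at. With 1370067_at the 48 h signals were 7943, 7566, 7849, 8080 and 9468 in vehicle and 8689, 8189, 8380, 10279 and 10229 at 500 µM, which overlap. Its difference was 0.16 ± 0.09 (adjusted p = 0.211 over all probe sets), and at 5000 µM and 24 h it was -0.02 ± 0.09 (adjusted p = 0.929). With the same sets as a block, the difference at 500 µM and 48 h was 0.16 ± 0.05 and was called (adjusted p = 0.0349), higher than vehicle in 5 of 5 sets, and that at 5000 µM and 24 h was not (adjusted p = 0.874). The log2 gap between the probe sets was 0.54 ± 0.08 (SD, n = 5) in the 500 µM wells at 48 h and -0.08 ± 0.09 in vehicle. The group means of this probe set gap followed the order of the β-actin ratio over all 6 groups. They ran from -0.2 ± 0.12 (mean ratio 1.21, 5000 µM, 48 h) to the 0.54 above (mean ratio 1.86). Of the 24 h groups, vehicle had a gap of 0.25 ± 0.18 (ratio 1.78). The 500 µM group had 0.24 ± 0.24 (ratio 1.61), and the 5000 µM group -0.07 ± 0.21 (ratio 1.37). The part of RNA quality in the probe set gap was not tested. With the mean of both probe sets the rise at 500 µM and 48 h was 0.47 ± 0.07 and stayed called (adjusted p = 2.21e-05), and the fall at 5000 µM and 24 h was -0.18 ± 0.07 and did not (adjusted p = 0.0594).

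**Figure D3:**
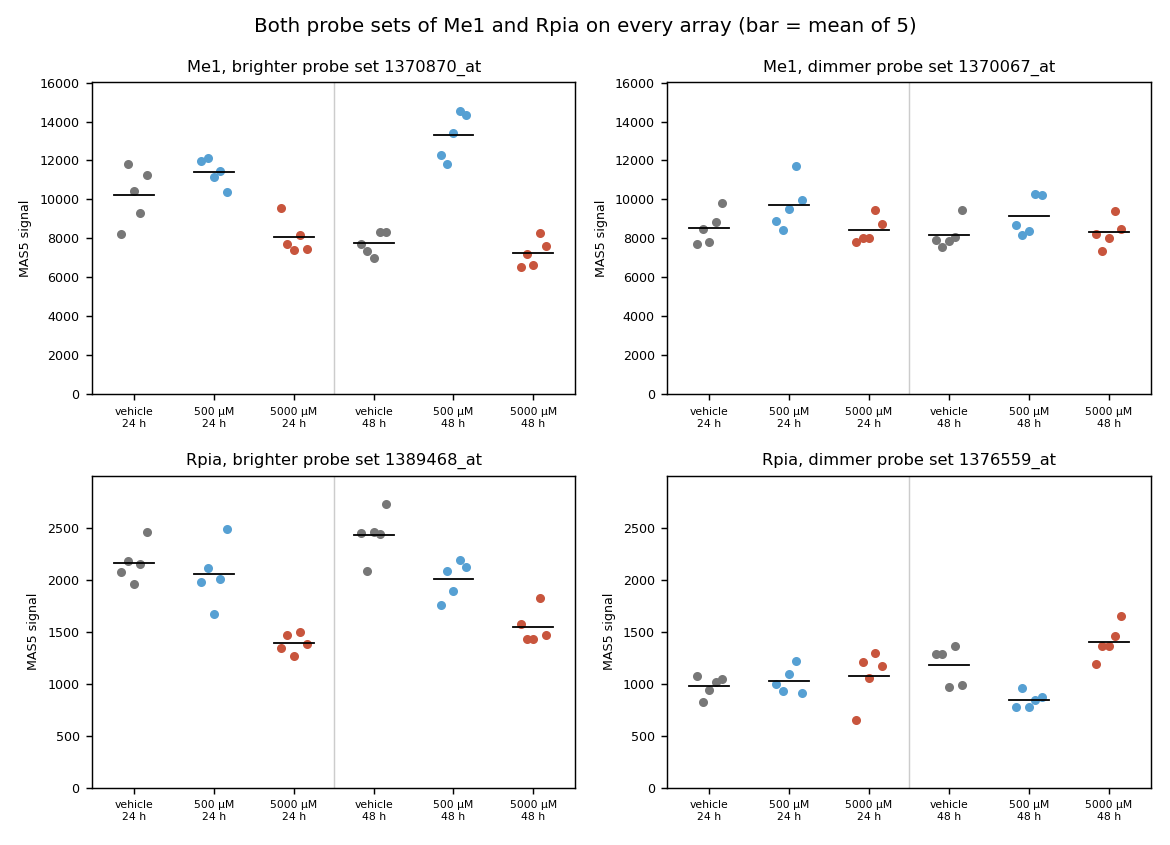
MAS5 signal of both probe sets of Me1 and Rpia on all 30 arrays, by dose and time (linear axes from 0, shared within a gene; points are arrays, bars are means of 5). The brighter Me1 probe set is raised at 500 µM and 48 h and the dimmer one overlaps vehicle; the brighter Rpia probe set is lower at 5000 µM and the dimmer one is not.

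The isocitrate dehydrogenases, which make NADPH while oxidising isocitrate, did not move together. Idh2, the mitochondrial enzyme, was lower than vehicle in 3 of the 4 comparisons. At 48 h its vehicle signals were 12426, 13534, 13817, 11552 and 11127. At 500 µM they were 10664, 9880, 9181, 10866 and 10238, and at 5000 µM 10947, 10547, 9820, 10995 and 11011. Both treated groups lay wholly below vehicle. The differences were -0.29 ± 0.06 at 500 µM (adjusted p = 0.00047) and -0.22 ± 0.06 at 5000 µM (adjusted p = 0.00582). They kept their calls with the covariate, at -0.33 ± 0.09 (adjusted p = 0.0277) and -0.22 ± 0.06 (adjusted p = 0.00543). In the 5000 µM wells at 24 h the groups overlapped, and the difference of -0.19 ± 0.06 (adjusted p = 0.0138) was not called with the covariate (adjusted p = 0.0851), with median centring (adjusted p = 0.0583) or without 5000 µM replicate 2 (adjusted p = 0.0526).

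Idh1, the enzyme of cytosol and peroxisomes, had the narrowest range of group means. It rose at 5000 µM and 48 h, from 33568, 36966, 35010, 33468 and 36581 in vehicle to 37620, 40574, 39135, 37401 and 42732, with no overlap. The difference was 0.17 ± 0.05 (adjusted p = 0.0131), and it was not called without 5000 µM replicate 5 (0.14 ± 0.05, adjusted p = 0.0511). A second Idh1 probe set had group means of 117 to 181, below the tested range, and with the mean of both the difference was 0.20 ± 0.16 (adjusted p = 0.396). Idh1 was not called at 5000 µM and 24 h (0.10 ± 0.05, adjusted p = 0.145) or at 500 µM and 48 h (0.03 ± 0.05, adjusted p = 0.674). Both were called under quantile normalization, at 0.09 ± 0.03 (adjusted p = 0.0297) and 0.13 ± 0.03 (adjusted p = 0.00465).

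Nnt encodes the mitochondrial transhydrogenase. At 48 h its signals were 13484, 13923, 13146, 12853 and 12326 in vehicle and 15407, 15399, 15379, 16878 and 15832 at 500 µM, all higher. The rise was 0.26 ± 0.06 (adjusted p = 0.00159), and with the covariate 0.13 ± 0.08 (adjusted p = 0.434). It was not called with the gap as a block either (0.16 ± 0.08, adjusted p = 0.244). The 5000 µM differences were -0.11 ± 0.06 at 24 h and 0.11 ± 0.06 at 48 h, and neither was called.

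Of the 6 calls at 500 µM and 48 h, 2 were therefore still made with the covariate and the same 2 with the block: the rise of Me1 and the fall of Idh2. At 48 h no group had arrays on both sides of the gap. The block was thus estimated from the 24 h arrays and cannot separate it from this dose at 48 h. The second probe set of Me1 gave 0.16 ± 0.09 (adjusted p = 0.211 over all probe sets). Among all tested genes the covariate left 339 calls (3.97%) and the block 484 (5.67%). Of the 5 calls at 5000 µM and 24 h the covariate left 3, the falls of Tkt, Rpia and Me1, while the block left 5. The second probe sets of Rpia and Me1 gave 0.10 ± 0.14 and -0.02 ± 0.09 there, and neither was called.

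**Figure D4:**
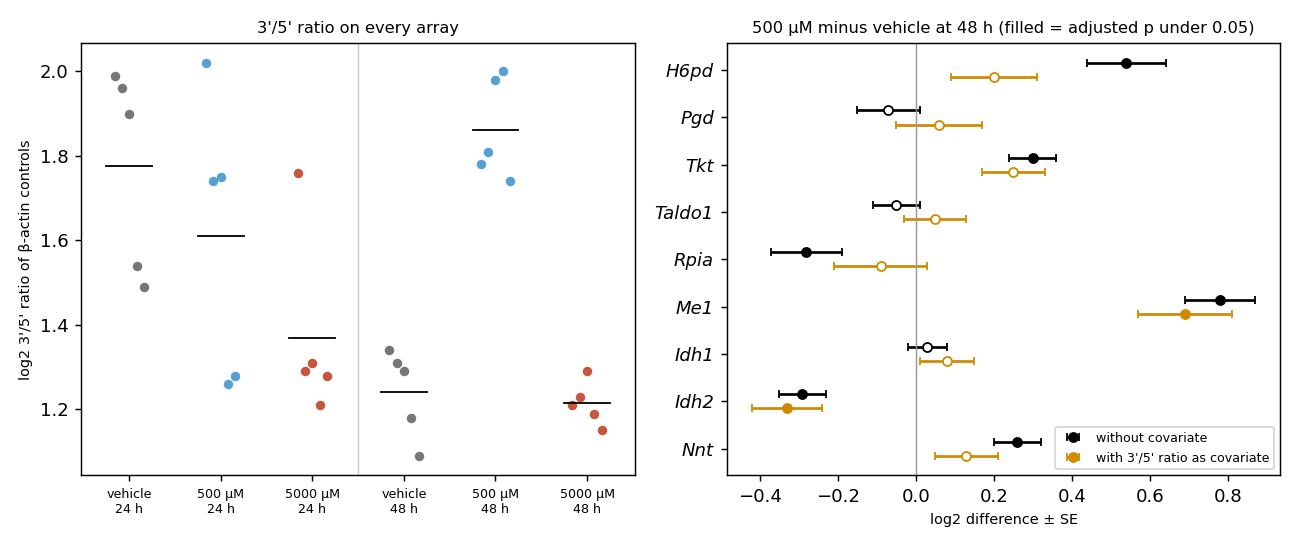
Left, the log2 3′/5′ ratio of the β-actin controls on each of the 30 arrays (bars are means of 5); right, the difference of the 9 genes between 500 µM and vehicle at 48 h with its standard error, without and with that ratio as a covariate (filled symbols have an adjusted p under 0.05). The ratio is 1.74 to 2.00 at 500 µM and 48 h and 1.09 to 1.34 in vehicle, and with the covariate Me1 and Idh2 are the filled symbols.

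The doses were also set against each other. At 24 h, 3 of the 9 genes were lower at 5000 than at 500 µM and none was higher, against 31.2% of all tested genes called (16.8% higher and 14.3% lower). These were Rpia (-0.55 ± 0.09, adjusted p = 2.18e-05), Me1 (-0.51 ± 0.09, adjusted p = 2.53e-05) and Tkt (-0.32 ± 0.06, adjusted p = 8.97e-05), each without overlap between the groups. The second probe set of Rpia gave 0.03 ± 0.14 (adjusted p = 0.93 over all probe sets). That of Me1 gave -0.20 ± 0.09 (adjusted p = 0.135), and neither was called in that fit. At 48 h, 7 were called, 2 higher and 5 lower, against 47.6% of all (19.4% higher and 28.2% lower). Median centring turned the split of all calls from 1657 higher and 2407 lower to 2466 and 1624, and that of the 9 genes to 3 higher and 3 lower. Me1 was lower at 5000 µM by -0.87 ± 0.09, or 1.83-fold (adjusted p = 1.56e-09), and its second probe set by -0.14 ± 0.09 (adjusted p = 0.287). Rpia was lower by -0.38 ± 0.09 (adjusted p = 0.00116), but its second probe set was higher by 0.73 ± 0.14 (adjusted p = 0.000176), so no direction is given for Rpia between doses at 48 h. Tkt was lower by -0.30 ± 0.06 (adjusted p = 0.000121), Pgd by -0.25 ± 0.08 (adjusted p = 0.00853) and H6pd by -0.32 ± 0.10 (adjusted p = 0.00991). With the covariate Tkt and Pgd stayed called (-0.24 ± 0.08 and -0.39 ± 0.11), while H6pd differed by 0.03 ± 0.12. Pgd was not called with median centring (-0.15 ± 0.09, adjusted p = 0.154), nor was H6pd, which was also not called without 500 µM replicate 3 (adjusted p = 0.055). Taldo1 was higher at 5000 µM by 0.21 ± 0.06 (adjusted p = 0.00358) and Idh1 by 0.14 ± 0.05 (adjusted p = 0.0299), and neither was called with the covariate. The Idh1 call was also lost under quantile normalization (0.04 ± 0.03, adjusted p = 0.421), with no filter on dim genes (adjusted p = 0.0519), with the mean of its probe sets (adjusted p = 0.0923), and in each of 4 fits that left out 1 array, 500 µM replicate 1 or 3 or 5000 µM replicate 2 or 5 (adjusted p = 0.0565 to 0.0999).

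Vehicle wells changed between 24 and 48 h in 4 of the 9 genes, 1 higher and 3 lower, against 32.5% of all tested genes (13.4% higher and 19% lower). With median centring the split of all calls was 1695 higher and 1215 lower, instead of 1145 and 1625, and that of the 9 genes did not change. H6pd fell by 0.46 on the log2 scale (SE 0.10, adjusted p = 0.00104), Me1 by 0.39 (SE 0.09, adjusted p = 0.00104) and Tkt by 0.32 (SE 0.06, adjusted p = 0.000169), and Idh2 rose by 0.18 ± 0.06 (adjusted p = 0.0267). The second probe set of Me1 gave -0.06 ± 0.09. With the covariate only Tkt stayed called (-0.27 ± 0.08, adjusted p = 0.0317). Within the arrays below the gap (5 at 48 h and 2 at 24 h) the differences of H6pd, Me1, Tkt and Idh2 were -0.44, -0.40, -0.27 and 0.19. The Idh2 call was lost without vehicle 48 h replicate 2 (adjusted p = 0.0806) or 3 (adjusted p = 0.0956), or without vehicle 24 h replicate 3 (adjusted p = 0.0545). Over the same interval the summed signal of the 7 cholangiocyte markers went from 9704 to 9957 in vehicle at 24 h to 13588 to 14818 at 48 h, most of it Epcam, with Krt7 and Krt19 dim. Its part in these changes was not tested.

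Whether a dose acted differently at the 2 times was tested as an interaction. For 500 µM, 5 of the 9 genes were called, 4 with a higher effect at 48 h and 1 with a lower one, against 36.6% of all (22.1% higher and 14.5% lower). Under median centring all calls split into 1292 higher and 2054 lower, instead of 1886 and 1240, and the 9 genes into 2 and 2. That centring moved the median of all genes from 0.04 to -0.09. The differences between times were 0.63 ± 0.14 for H6pd (adjusted p = 0.00117), 0.60 ± 0.12 for Me1 (adjusted p = 0.000426), 0.34 ± 0.08 for Tkt (adjusted p = 0.00213), 0.29 ± 0.09 for Nnt (adjusted p = 0.0119) and -0.23 ± 0.09 for Idh2 (adjusted p = 0.0411). The Idh2 call was lost in 13 of the fits that left out 1 array (adjusted p = 0.0501 to 0.0923). The second probe set of Me1 gave -0.02 ± 0.12. With the β-actin ratio as a covariate none was called, while 3 of the 9 genes had an unadjusted p under 0.05 in limma, and with the gap as a block Me1 alone was called. For 5000 µM, 1 gene was called, Tkt, whose effect was higher at 48 h by 0.36 ± 0.08 (adjusted p = 0.00265), against 16.4% of all (7.74% higher and 8.66% lower). Tkt stayed called with the covariate (0.33 ± 0.09, adjusted p = 0.0156).

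The spread of group means over the 6 groups was 0.87 on the log2 scale for Me1, 0.80 for Rpia, 0.54 for H6pd, 0.38 for Idh2, 0.36 for Tkt, 0.33 for Nnt, 0.32 for Pgd, 0.24 for Taldo1 and 0.17 for Idh1. In order, the mean signal of Me1 was 13282 at 500 µM and 48 h, 11431 at 500 µM and 24 h, 10212 in vehicle at 24 h, 8066 at 5000 µM and 24 h, 7750 in vehicle at 48 h and 7256 at 5000 µM and 48 h. Neighbours in this order overlapped in every case. For Rpia the order was vehicle at 48 h (2432) and 24 h (2162), 500 µM at 24 h (2050) and 48 h (2007), and 5000 µM at 48 h (1544) and 24 h (1390), and again each group overlapped the next. These orders are of the brighter probe sets. In the dimmer one of Rpia, 5000 µM at 48 h was highest (1405) and 500 µM at 48 h lowest (844). In that of Me1, means ran from 8181 (vehicle, 48 h) to 9705 (500 µM, 24 h).

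Across the 30 arrays, which fall into 6 treatment groups and share an RNA quality gradient, Me1 and Tkt had a Pearson r of 0.85, and 0.64 after group means were removed. Taldo1 and Idh1 had r = 0.66, and 0.68 within groups. Taldo1 and Rpia had r = -0.56, but -0.02 within groups. The tested genes most like Me1 by r over the 30 arrays were Mthfd1 (0.92), Mtus1 (0.91) and Acaca (0.90), of which Mthfd1 encodes an enzyme of folate metabolism that also forms NADPH and Acaca the enzyme that makes malonyl-CoA for fatty acid synthesis. Those most like Rpia were Aqp9 (0.92), Sult6b2 (0.90) and Tpm1 (0.90), and those most like H6pd were Ttyh2 (0.91), Man2b1 (0.90) and Taf4 (0.90). These correlations are descriptions and were not tested.

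The counts of the other gene lists stand against the shares of all tested genes called in the same comparison: 2.86% at 500 µM and 38.1% at 5000 µM at 24 h, and 42.6% and 32.6% at 48 h. A list of other genes around NADP and NADPH, mostly of folate metabolism, had 9 tested. Not all encode enzymes that form NADPH (Mthfd1l does not), so its counts are not counts of such enzymes. At 5000 µM and 24 h 1 was called higher and 7 lower, with a median of -0.48 against 0.00 for all genes, 19.6% of which were lower. After 48 h at 5000 µM none was higher, 5 were lower and 4 were not called (median -0.25), against 18% of all genes lower. Aldh1l2, the mitochondrial formyltetrahydrofolate dehydrogenase, fell by 1.25 on the log2 scale (SE 0.11, adjusted p = 1.14e-10) at 24 h and by 1.08 (SE 0.11, adjusted p = 2.67e-09) at 48 h. Its cytosolic relative Aldh1l1 differed by -0.67 ± 0.09 at 24 h and by 0.02 ± 0.09 at 48 h. Mthfd2, a mitochondrial folate dehydrogenase, fell by 0.55 (SE 0.15) and by 0.74 (SE 0.15). The mitochondrial malic enzyme Me2 was the gene that rose at 24 h, by 0.49 ± 0.13 (adjusted p = 0.00264). At 500 µM and 48 h 7 of these 9 were higher and none lower (median 0.39), among them Nadk, which makes NADP+ from NAD+ (0.62 ± 0.08, adjusted p = 5.97e-07), and Mthfd1 (0.53 ± 0.08). With the β-actin covariate 1 of the 7 stayed called, Nadk (0.38, adjusted p = 0.0134), and with the gap as a block 2 were called. The counts at 5000 µM were the same with the covariate as without it. In vehicle, Nadk differed by -0.47 ± 0.08 and Mthfd1 by -0.37 ± 0.08 between 48 and 24 h.

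Of 11 further tested genes of the pentose phosphate pathway and ribose use, 4 rose and 2 fell at 5000 µM and 24 h (median 0.05), where 18.6% of all genes were higher and 19.6% lower. Those that make phosphoribosyl pyrophosphate from ribose 5-phosphate, or bind the enzyme that does, rose: Prps1 by 0.43 ± 0.08, Prps2 by 0.36 ± 0.08 and Prpsap1 by 0.45 ± 0.08. Pgls, the lactonase between the oxidative steps, fell by 0.25 on the log2 scale (SE 0.07, adjusted p = 0.00551), and Pgm1, phosphoglucomutase, fell by 0.32 (SE 0.06). At 48 h and 5000 µM Prpsap1 alone was called (0.24 ± 0.08, adjusted p = 0.0194). In the 500 µM wells at 48 h, 1 rose and 3 fell, among them Shpk, sedoheptulose kinase (0.51 ± 0.12), and Rpe, the epimerase of the reversible branch (-0.35 ± 0.10), and none of the 11 was called with the covariate, where 1 had an unadjusted p under 0.05 in limma. None of the 11 was called at 500 µM and 24 h (0 at an unadjusted p under 0.05 in limma). Of the 9 genes around NADP and NADPH none was called there (2 at an unadjusted p under 0.05).

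Among 22 tested enzymes that consume NADPH, 4 rose and none fell at 500 µM and 24 h, led by Decr2 (0.49 ± 0.07), Dhrs4 (0.33 ± 0.08) and Decr1 (0.28 ± 0.06); Decr1 and Decr2 are dienoyl-CoA reductases of fatty acid oxidation. In the 5000 µM wells at 24 h, 1 rose and 6 fell, with fatty acid synthase, Fasn, at -0.71 ± 0.13 (adjusted p = 7.93e-05) and the sterol reductase Dhcr7 at -0.38 ± 0.10. These 7 calls of 22 are a smaller share than the 38.1% of all genes called there. The 500 µM wells at 48 h had 4 higher and 5 lower, a share close to the 42.6% of all genes. Fasn rose by 0.76 ± 0.13 (adjusted p = 5.27e-05) and Por, the electron donor to cytochrome P450, by 0.55 ± 0.08, and glutathione reductase, Gsr, fell by 0.34 (SE 0.13, adjusted p = 0.0284). With the covariate 3 rose and none fell there, and Fasn (0.73, adjusted p = 0.0274) and Por (0.39, adjusted p = 0.0286) were among them. The 5000 µM wells at 48 h had 6 higher and 3 lower, with Por at 0.44 ± 0.08 and carbonyl reductase Cbr1 at -0.39 ± 0.05. In vehicle, Por differed by -0.24 ± 0.08 between 48 and 24 h.

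A list of genes around the substrates of the NADPH enzymes included 17 that were tested. Not all supply substrate: Idh3a, Idh3b and Idh3g encode the NAD-dependent isocitrate dehydrogenase, which uses isocitrate. At 500 µM and 48 h, 8 rose and none fell (median 0.15): Pc, pyruvate carboxylase (0.92 ± 0.17), Slc25a10, the dicarboxylate carrier that exports malate (0.75 ± 0.09), and Cs, citrate synthase (0.74 ± 0.09), rose most. With the covariate 3 stayed called, including Slc25a10 (0.54, adjusted p = 0.00634) and Cs (0.51, adjusted p = 0.00556) but not Pc (0.28, adjusted p = 0.405). None rose and 5 fell at 5000 µM and 24 h, with Pc at -0.72 ± 0.17 (adjusted p = 0.000806), Slc25a10 at -0.58 ± 0.09 and Idh3b at -0.32 ± 0.05. With the covariate 2 of these 5 stayed called, and Pc was not among them (-0.30, adjusted p = 0.121). After 48 h at 5000 µM, 5 rose and 1 fell, Idh3b (-0.38 ± 0.05). Aco1, cytosolic aconitase, rose by 0.54 ± 0.08 and Slc37a4, the glucose 6-phosphate carrier of the endoplasmic reticulum that feeds H6pd its substrate, by 0.40 ± 0.06 (adjusted p = 8.39e-07). In vehicle, Pc differed by -0.62 ± 0.17, Cs by -0.45 ± 0.09 and Aco1 by -0.45 ± 0.08 between 48 and 24 h.

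Fatty acid synthesis, a large consumer of NADPH, was followed through a list of lipogenic genes. Of 14 tested genes, none rose and 9 fell at 5000 µM and 24 h (median -0.55), with Pklr, liver pyruvate kinase, at -1.13 ± 0.12 and Nr1h3, the oxysterol receptor LXR-alpha, at -0.99 ± 0.08. After 48 h at 500 µM, 9 rose and 1 fell (median 0.27). Srebf1, a transcription factor of fatty acid synthesis, rose by 0.90 ± 0.11 (adjusted p = 7.59e-07) and Acaca by 0.54 ± 0.09, and Thrsp fell by 0.37 (SE 0.12). With the covariate 5 rose and none fell there, with Srebf1 at 0.77 (adjusted p = 0.00402). In the 5000 µM wells at 48 h, 1 rose and 3 fell (median -0.03). In vehicle, Acaca differed by -0.33 ± 0.09 and Thrsp by 0.75 ± 0.12 between 48 and 24 h.

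Of 14 NRF2 targets tested, none rose and 1 fell at 500 µM and 24 h, and none rose and 4 fell at 5000 µM and 24 h. At 48 h, 2 rose and 5 fell at 500 µM, and none rose and 5 fell at 5000 µM. The share of the list called was below that of all genes at 5000 µM and 24 h (38.1%) and near it at 48 h (32.6%). Slc7a11, the cystine importer, fell by 1.23 on the log2 scale (SE 0.10, adjusted p = 2.17e-11) at 5000 µM and 48 h, and Hmox1, heme oxygenase, by 0.48 (SE 0.08). Of the NRF2 targets at 500 µM and 48 h, Txnrd1, thioredoxin reductase, rose by 0.34 ± 0.09, and Gclm, a subunit of the enzyme that starts glutathione synthesis, fell by 0.42 (SE 0.07). With the covariate none of the list was called there, and 2 had an unadjusted p under 0.05 in limma. In vehicle, Txnrd1 differed by -0.59 ± 0.09 between 48 and 24 h. PPAR-alpha targets, for comparison, rose in 9, 7, 12 and 12 of 14 tested genes and fell in 0, 2, 0 and 1, in the order 500 and 5000 µM at 24 h and then 48 h. Among them Ehhadh of peroxisomal β-oxidation rose by 1.97 ± 0.12 at 500 µM and 48 h.

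Some cell markers moved with these comparisons. Hnf4a, a transcription factor of hepatocytes, was higher than vehicle by 0.72 ± 0.10 at 500 µM and 48 h (adjusted p = 1.74e-06) and by 0.38 with the covariate (adjusted p = 0.0357). Its mean signal there was 15165, against 15326 in vehicle at 24 h and 9199 in vehicle at 48 h. The other hepatocyte marker called at 500 µM and 48 h was Apob. None of the 9 was called at 5000 µM against vehicle, with 2 at an unadjusted p under 0.05 in limma at each time. The summed signal of the 8 Kupffer cell and leukocyte markers was 20149 to 22991 at 5000 µM and 24 h against 23228 to 30726 in vehicle. At 48 h it was 21350 to 23485 against 24709 to 28957. Cd14 carried most of this sum and fell by 0.54 on the log2 scale (SE 0.07) at 24 h and by 0.28 (SE 0.07) at 48 h, while Cd163 and Ptprc were below the tested range. Lyz2 and Cd68, the other tested markers of this list, were not called at 5000 µM against vehicle. Of the 3 tested, 1 had an unadjusted p under 0.05 in limma at 24 h and 2 at 48 h. Other markers moved at 500 µM and 48 h, where Me1 rose. The summed signal of the 7 cholangiocyte markers was 11318 to 11940 there against 13588 to 14818 in vehicle, without overlap, and Epcam fell by 0.30 on the log2 scale (SE 0.05, adjusted p = 6.85e-05; -0.12 with the covariate, adjusted p = 0.278). Lyz2, a leukocyte marker, fell by 0.20 (SE 0.07, adjusted p = 0.0276; -0.12 with the covariate, adjusted p = 0.578). At 5000 µM Epcam differed from vehicle by 0.17 ± 0.05 at 24 h and -0.14 ± 0.05 at 48 h, and both were called, the first not with the covariate (0.05, adjusted p = 0.489). Of the 18 stellate cell and endothelial markers measured, 3 were bright enough to be tested. Acta2 was called against vehicle, at 5000 µM and 48 h (-0.47 ± 0.14, adjusted p = 0.0107), and Col3a1 between doses at 48 h (-0.46 ± 0.14, adjusted p = 0.00669; -0.16 with the covariate, adjusted p = 0.619). In bulk RNA, fewer cells of a type and less RNA per cell cannot be told apart, and the part of such cells in the results was not tested.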

How the data were processed

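The deposited values are MAS5 signal intensities on a linear scale, per the submitters' processing notes, which name MAS5 with no version; its target is not stated there. After a 2% trim at each end, array means were 1500.55 to 1500.66, so the authors had scaled every array alike. Of 31099 probe sets, 57 were controls, 20826 had 1 gene symbol, 436 several (not used) and 9780 none listed in the platform annotation. Symbols were updated through Entrez identifiers to RefSeq (GRCr8). Signals were log2-transformed with no offset or further scaling. Each gene was read from its brightest probe set, and the brightest 60% of 14217 genes were tested (8531, down to a mean signal of 469). Group means were estimated together from the 30 arrays in limma 3.58.1 (R 4.3.3), with an intensity trend in eBayes (24 residual and 7.58 prior degrees of freedom). There were 9 comparisons, each adjusted by Benjamini-Hochberg over all tested genes. Values of second probe sets come from the same fit over all 20826 probe sets. Named genes are the 9 members, and of each other list at most the 3 largest called rises and 3 largest called falls per comparison; second probe sets of those other genes were not compared. Members and lists were chosen with earlier results of these data known. Groups come from the sample titles; replicate numbers follow accession order, which is also that of the titles' serial numbers. Alternatives were median centring, quantile normalization, no filter on dim genes, the mean of all probe sets, only the groups compared, 100 added before log2, no trend, the β-actin 3′/5′ ratio as a covariate or block, sets of arrays by title serial number as a block (added after seeing the data), and leaving out each array. The number of arrays limits precision. The fit was tried on simulated arrays with planted changes and independent noise. They held no RNA quality gradient, so they say nothing about its part in the calls. Figures were drawn with matplotlib 3.10.9 in Python 3.11.15.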

Additional observations from a re-analysis of the deposited data

Results flagged for a closer look

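The effect of 500 µM acetaminophen differed between 48 and 24 h, by a test of the difference itself in limma, for H6pd (0.63 on the log2 scale), Me1 (0.60), Tkt (0.34), Nnt (0.29) and Idh2 (-0.23). At 24 h these genes differed from vehicle by -0.10, 0.17, -0.04, -0.03 and -0.06, and at 48 h by 0.54, 0.78, 0.30, 0.26 and -0.29. The β-actin ratio differed between the same wells, and with it as a covariate none of the 5 differences was called (3 genes had an unadjusted p under 0.05 in limma). With median centring fewer of them were called. The second probe set of Me1 gave -0.02 ± 0.12. The Idh2 call was lost in many of the fits that left out 1 array. The effect of 5000 µM on Tkt also differed between the times, by 0.36: it was -0.36 at 24 h and 0.00 at 48 h. The vehicle wells themselves were lower at 48 h, and the mean signal of Tkt at 5000 µM was 16368 at 24 h and 16930 at 48 h.

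Taldo1 in the 500 µM wells at 48 h had 1 array, replicate 2, apart from the other 4: its signal was 23985, and the others were 21529 to 22155. The gap to the nearest array was 0.735 of the group's range, above Dixon's critical value of 0.71. There were 54 such groups examined, and chance flags about 1 in 20.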

How the results depend on the processing

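At 48 h the 500 µM dose and the side of the β-actin gap cannot be told apart, since all 5 arrays at 500 µM lay above the gap and none of the vehicle arrays did. With the β-actin ratio as a covariate, the number of the 9 genes called was 3 instead of 5 at 5000 µM and 24 h, 2 instead of 6 at 500 µM and 48 h, 4 instead of 7 between doses at 48 h, 1 instead of 4 in vehicle over time, and 0 instead of 5 in the 500 µM difference between times (3 at an unadjusted p under 0.05 in limma). With the gap as a block it was 2 at 500 µM and 48 h, 4 between doses at 48 h and 1 in the 500 µM difference between times. With the mean of all probe sets it was 3 instead of 5 at 5000 µM and 48 h, and with quantile normalization 5 instead of 3 between doses at 24 h. In the 5000 µM difference between times it was 2 instead of 1 with median centring and 2 with only the groups compared. Between doses at 48 h, H6pd turned from -0.32 to 0.03 with the covariate and Rpia from -0.38 to 0.18 with the mean of its probe sets. The cause was not tested. Over all tested genes the covariate left 339 of 3632 calls at 500 µM and 48 h, 1782 instead of 4064 between doses at 48 h, 440 instead of 2770 in vehicle over time, and 3 instead of 3126 and 821 instead of 1399 in the differences between times of 500 and 5000 µM. The block gave 484, 2021, 1190 and 682 in the first 4 of these. At 500 µM and 24 h the 244 calls became 447 with the block and 100 with only the groups compared. They were 155 and 156 without vehicle replicate 1 and 2, and 151 and 116 without 500 µM replicate 4 and 5. Leaving out 1 array at a time gave 0 to 0, 4 to 5, 5 to 6 and 3 to 5 genes called for 500 and 5000 µM against vehicle at 24 h and then 48 h. It gave 3 to 4 and 5 to 7 between doses, 3 to 4 in vehicle over time, and 4 to 6 and 1 to 2 in the differences between times of 500 and 5000 µM. The Idh2 difference between times at 500 µM was not called without any 1 of 13 arrays (adjusted p = 0.0501 to 0.0923). Over all fits without 1 array, 950 member differences kept direction and call, 29 lost a call, 11 gained one and 0 reversed. The titles carry serial numbers that run through the 6 groups in turn, and 5 consecutive sets of 6 arrays were tried as a replicate block, chosen after seeing the data; the labels do not say that a set shares a plate or day. Deviations from group means correlated over 0.1 in 31 of 75 same-set pairs (median r 0.06, -0.32 to 0.43) and in 53 of 300 pairs across sets and groups (median -0.02), and 19 of 30 arrays were closest on average to their own set. Arrays of a set were thus more alike on the whole than arrays of different sets. The main fit has no pairing because the labels state none, and what a set shares was not tested. With the block 77 member differences kept their call, 4 gained one, none lost one and 3 instead of 1 were called in the 5000 µM difference between times (H6pd and Pgd added). Of the second probe sets of Me1 and Rpia, Me1 gained calls at 500 µM and 48 h (0.16, adjusted p = 0.0349) and between doses at 24 h (-0.20, adjusted p = 0.0113).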
